A study of Mus musculus with 6 samples.

Results

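The genes described here make, sense, move and export cholesterol in NIH3T3 cells, an immortalised line of mouse embryonic fibroblasts. They were taken by symbol: 33 genes, each with 1 row in the deposited tables of 55401 genes, and all 33 passed the filter on low counts that left 17159 genes for testing. They fall by role into 19 synthesis enzymes, 5 regulators, 4 transport and storage genes and 5 genes of efflux and of the liver X receptors (LXR). The list does not hold every gene of the pathway.

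Messenger RNA was sequenced in 3 libraries of cells labelled as given the solvent DMSO and 3 libraries labelled as given IPRN, all of the same line and labelled as wild type. The labels do not spell out IPRN; the series title names angelicin, a furanocoumarin. Per the design text, cells were pushed toward a cancer-associated fibroblast state with TGF-β plus hydrogen peroxide, and the question was which signalling pathways respond to IPRN. No dose or time is given, and the labels do not say whether both groups received these 2 agents or whether the libraries were separate cultures, so p-values measure only the spread between these libraries.

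Cholesterol is built from acetyl-CoA through mevalonate, isoprenoids, squalene and lanosterol. When sterol is scarce in the endoplasmic reticulum, SCAP escorts the transcription factor SREBP2 to the Golgi for cleavage, and the freed factor activates the synthesis genes; the INSIG proteins hold SCAP back when sterol is plentiful. Oxysterols, which accumulate with cholesterol, activate the LXR receptors, whose targets export cholesterol or lower its uptake. Fibroblasts carry both systems.

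Total counts ran from 60320282 to 78629444 per library. The 10 genes that mark fibroblasts summed to between 20977 and 21989 CPM (counts scaled to library size, here with TMM factors) in DMSO and between 22607 and 25279 CPM in IPRN, without overlap (two-sided exact permutation p = 0.1). They moved apart: Fn1 was higher (4915 to 5061 CPM against 6142 to 6916 CPM), while Dcn was lower (333 to 339 CPM against 142 to 189 CPM). Every IPRN library also lay below every DMSO library for S100a4, Col3a1, Vim, Prrx1 and Lum (14.7% of all tested genes). The groups overlapped for Col1a1, Col1a2 and Pdgfrb. The 5 epithelial markers summed to at most 1.80 CPM. A list of 22 liver genes summed to between 43.5 and 106 CPM in DMSO and between 38.4 and 139 CPM in IPRN (two-sided exact permutation p = 1.0, n = 3 and 3; the smallest p possible is 0.1), with Hp giving 39.4 to 41.2 CPM of this in DMSO and at most 15.97 CPM in IPRN. Arg1 gave 18.99 CPM in IPRN 3, against 0.216 to 1.07 CPM in the other 5 libraries; the macrophage markers Adgre1 and Cd68 also stood highest there, at 7.51 and 4.98 CPM against at most 1.39 and 2.93 CPM. In DMSO 1 and IPRN 3, 15 of the 22 liver genes had no count, against 0 in the other 4 libraries; Alb measured 0, 21.2 and 11.5 CPM in DMSO 1, 2 and 3, and 42.8, 13.7 and 0.186 CPM in IPRN 1, 2 and 3. Endothelial markers (4 genes) summed to between 3.02 and 3.33 CPM in DMSO and between 1.37 and 2.45 CPM in IPRN, and leukocyte markers (5 genes) to at most 5.05 and 14.1 CPM; their part in the results was not tested. IPRN 1 stood farthest from its replicates (chi-square per degree of freedom of 81.8 and 88.8, against 31.2 to 44.6 for the other pairs).

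Under IPRN 10 of the 19 synthesis enzyme genes fell, together with Insig1 and Stard4, which SREBP2 also drives. No efflux gene passed the test, which does not show that efflux genes were unchanged. Of the export pump genes, Abcg1 had too few counts to compare. The interval of the log2 fold change of Abca1 (-0.42 to 0.12) still held a fall of the size called for Pmvk (-0.39). Of the 33 genes 13 were called at an adjusted p under 0.05 in edgeR's quasi-likelihood test, against a background of 5.47% of all tested genes. Of these 12 fell (background 3.01%) and 1 rose (background 2.46%). The falls lay between 1.31-fold and 1.81-fold. In bulk RNA, fewer cells of a kind and less RNA per cell cannot be told apart. Counted by separation alone, all 3 IPRN libraries lay below all 3 DMSO libraries for 16 genes (background 14.7%) and above them for 4 (background 14.9%). The median log2 fold change of the 33 was -0.29, against 0.0016 for all genes tested; it includes Nr1h3 and Abcg1, whose counts were near the filter.

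**Figure D1:**
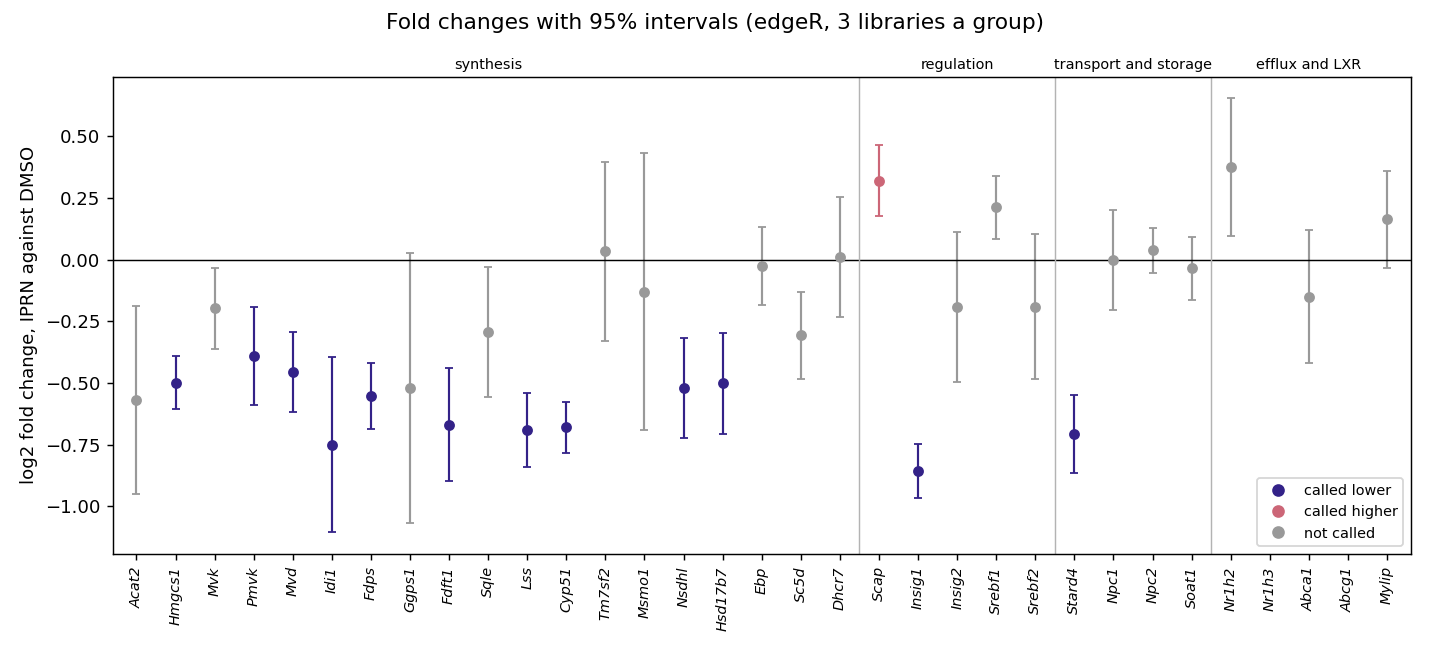
Log2 fold change of each gene, IPRN against DMSO (vertical axis), with its 95% interval from the edgeR fit; genes stand in pathway order within each role, and colour marks the call. Nr1h3 and Abcg1, under 1 CPM, are not drawn. The 12 genes called lower sit between -0.39 (Pmvk) and -0.86 (Insig1), and Scap is the 1 gene called higher.

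Per length, in FPKM (fragments per kilobase of gene, scaled to library size), the members spanned a wide range. In DMSO cells Cyp51 and Acat2 stood highest at 89.8 ± 0.712 and 88.8 ± 2.12 FPKM (SD, n = 3), followed by Npc2 at 65.9 ± 0.0823 and Insig1 at 50.4 ± 1.502 FPKM. The LXR-regulated genes lay far below: Srebf1 at 7.86 ± 0.0446, Mylip at 5.37 ± 0.263 and Abca1 at 1.78 ± 0.154 FPKM. Tm7sf2 (2.03 ± 0.332 FPKM) and Ggps1 (3.66 ± 0.182 FPKM) were the lowest of the synthesis enzymes.

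**Figure D2:**
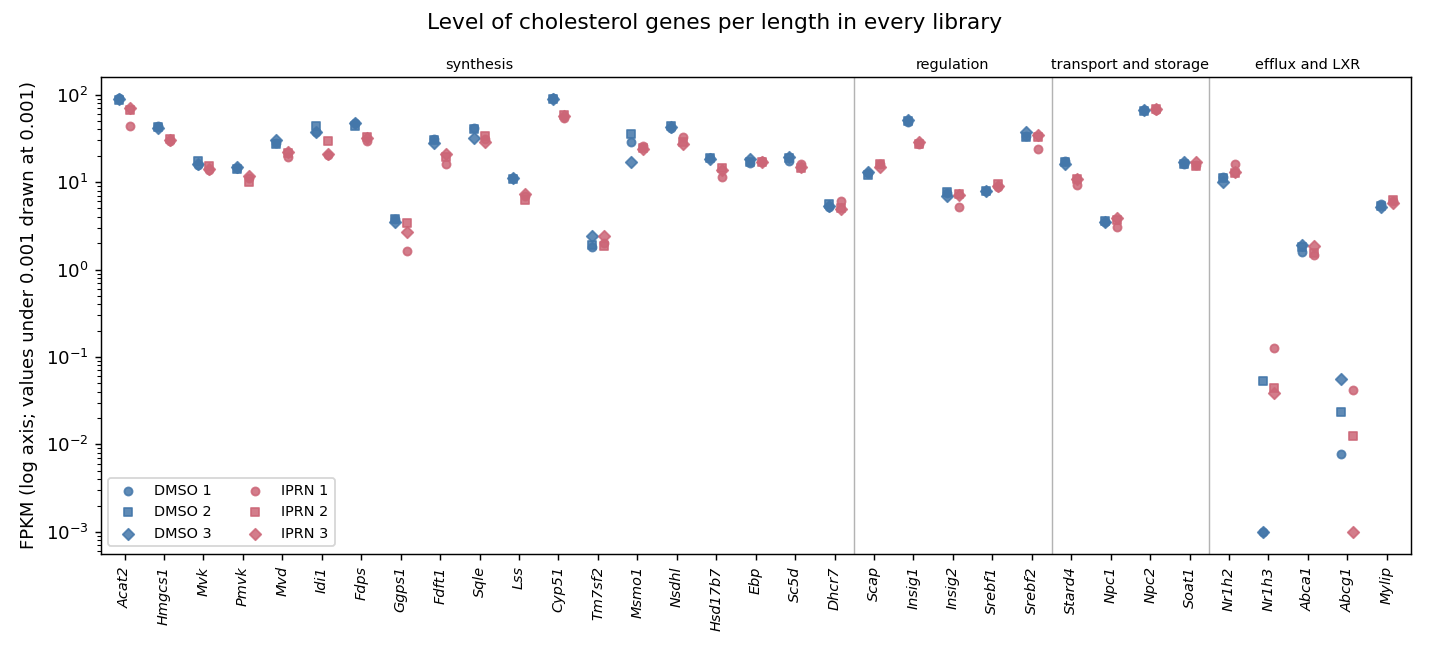
Level of each gene in every library in FPKM, on a log axis (values under 0.001 are drawn at 0.001), with DMSO in blue and IPRN in red and 1 symbol per library. Synthesis enzymes reach 89.8 FPKM in DMSO (Cyp51), and Nr1h3 and Abcg1 stay under 1 FPKM in all libraries.

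The first steps lead from acetyl-CoA units to squalene, and 6 of their 8 enzyme genes fell (background 3.01%, median log2 fold change -0.53). All 8 had every IPRN library below every DMSO library (14.7% of all tested genes). Acat2, the cytosolic thiolase that joins acetyl-CoA units, measured 258, 246 and 251 CPM in DMSO and 125, 186 and 198 CPM in IPRN. IPRN 1 was far below the other IPRN libraries, and Acat2 did not pass (log2 fold change -0.57, 95% interval -0.95 to -0.19, adjusted p = 0.0923), except without IPRN 1 (0.0109). Hmgcs1, the HMG-CoA synthase gene (chromosome 13 from 119690379 to 119708260, plus strand, GRCm38), held 224, 220.0 and 211 CPM in DMSO against 154, 158 and 151 CPM in IPRN. Its groups were tight and far apart, and the fall was 1.41-fold (log2 fold change -0.50 ± 0.0452 SE, adjusted p = 0.00285).

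The kinases that phosphorylate mevalonate had smaller fold changes than Hmgcs1, a difference that was not tested. Mvk, the first of them, measured 47.0, 51.9 and 48.6 CPM in DMSO and 41.7, 45.4 and 41.5 CPM in IPRN, without reaching the threshold (adjusted p = 0.151, interval -0.36 to -0.03). Pmvk, the second kinase, held 27.99, 26.5 and 28.1 CPM against 21.9, 19.2 and 21.9 CPM. This fall had the largest adjusted p of the 12 (1.31-fold lower, adjusted p = 0.0457), and it was lost whichever library was left out (0.0530 to 0.160). Mvd, the decarboxylase that yields isopentenyl diphosphate, fell 1.37-fold, from 57.8, 56.7 and 63.1 CPM to 40.8, 44.2 and 44.5 CPM (adjusted p = 0.0187). It kept its call without IPRN 1 (0.0277) and lost it in the other 5 fits with 1 library left out (up to 0.0790).

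The isoprenoid enzymes followed. Idi1, the isomerase of isopentenyl diphosphate, held 147, 172 and 147 CPM in DMSO and 80.6, 115 and 81.0 CPM in IPRN, with replicate 2 the highest of both groups. It was 1.68-fold lower (adjusted p = 0.0384) and, of the 6 fits with 1 library left out, was called only without IPRN 2 (0.0108; up to 0.145 in the others). Fdps, the farnesyl diphosphate synthase gene (chromosome 3 from 89093588 to 89101959, minus strand), held 225, 203 and 219.9 CPM against 141, 152 and 148 CPM. The fall was 1.47-fold (adjusted p = 0.00499) and was called whichever library was left out (0.00909 to 0.0384). Fdft1, squalene synthase, the first enzyme committed to sterols, fell 1.59-fold, from 144, 139 and 128 CPM to 74.6, 88.6 and 94.98 CPM (adjusted p = 0.0167). Its call held without IPRN 1 or IPRN 3 (0.0117 and 0.0294) and was lost in the other 4 fits (up to 0.0872).

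Ggps1 sits on the branch that leaves the pathway at farnesyl diphosphate to make geranylgeranyl groups for proteins. It measured 19.99, 19.7 and 18.3 CPM in DMSO and 8.81, 17.6 and 14.0 CPM in IPRN. The groups did not overlap, but IPRN 1 lay far below IPRN 2 and the gene did not pass (adjusted p = 0.252, interval -1.07 to 0.03). Of 10 other genes of isoprenoid use, such as prenyltransferases, 1 fell (background 3.01%) and 0 rose (background 2.46%). Nus1, a subunit of the dehydrodolichyl diphosphate synthase, was 1.28-fold lower (191, 204 and 196 CPM against 142, 158 and 159.9 CPM, adjusted p = 0.0257).

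Sqle and Lss turn squalene into lanosterol, and only the second of these steps passed the test; the difference between the 2 genes was not tested. Sqle, squalene epoxidase, measured 259, 246 and 199 CPM in DMSO and 195, 207 and 173 CPM in IPRN. DMSO 3 lay within the IPRN range (adjusted p = 0.184, interval -0.56 to -0.03). Lss, lanosterol synthase (chromosome 10 from 76531588 to 76557138, plus strand), held 133, 132 and 134 CPM against 85.6, 75.4 and 86.1 CPM. The DMSO libraries were nearly level, and the fall was 1.61-fold (log2 fold change -0.69 ± 0.0632 SE, adjusted p = 0.00299).

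Past lanosterol, 3 of 8 enzyme genes fell (background 3.01%) and 5 did not pass (median -0.22). Cyp51, the lanosterol demethylase gene (chromosome 5 from 4081145 to 4104746, minus strand), held 444, 441 and 438 CPM in DMSO and 267, 284 and 276 CPM in IPRN. This 1.60-fold fall had the second smallest adjusted p of the 33 genes (0.000638). Nsdhl and Hsd17b7, a dehydrogenase and a ketoreductase that act in removing the methyl groups at carbon C-4, fell 1.44-fold and 1.42-fold. Nsdhl held 132, 138 and 136 CPM against 107, 89.9 and 86.0 CPM (adjusted p = 0.0234), and Hsd17b7 held 107, 107 and 105 CPM against 65.4, 82.3 and 77.7 CPM (0.0265). In each the DMSO libraries were close together and the IPRN libraries spread; IPRN 1 was the highest for Nsdhl and the lowest for Hsd17b7. Nsdhl was still called without IPRN 1 (0.00240) and Hsd17b7 without IPRN 1 or IPRN 2 (0.0101 and 0.0448); without the other single libraries their adjusted p-values reached 0.111 and 0.116.

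The other late enzymes gave no call. Msmo1, the methylsterol monooxygenase gene, measured 199, 240.5 and 116 CPM in DMSO and 179, 168 and 159.7 CPM in IPRN. DMSO 3 lay below all the IPRN libraries, and the interval was wide (-0.69 to 0.43, adjusted p = 0.822). Sc5d, the lathosterol desaturase gene, had separate groups at 94.7, 102 and 106 CPM against 88.9, 77.1 and 78.7 CPM but missed the threshold (adjusted p = 0.0647). It passed without IPRN 1 (0.0285). Ebp, the sterol isomerase gene, and Dhcr7, the last reductase of 1 route, had log2 fold changes of -0.03 (interval -0.19 to 0.13) and 0.01 (-0.23 to 0.25), intervals that hold no fall of the size seen at Cyp51. Tm7sf2, a sterol reductase gene, measured 8.94 to 11.9 CPM in DMSO and 9.08 to 11.7 CPM in IPRN (adjusted p = 0.937).

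Ratios of counts within a library do not depend on how libraries are scaled. The ratio of Cyp51 to Dhcr7 was 13.3, 12.2 and 12.8 in DMSO and 6.68, 8.63 and 8.72 in IPRN. That of Lss to Ebp was 3.09, 2.99 and 2.81 against 1.87, 1.75 and 1.98. Neither ratio overlapped between groups (two-sided exact permutation p = 0.1 for each of 8 ratios computed, the smallest 3 against 3 libraries allow, and 0.1 after adjustment over the 8). All of the 8 but Srebf1 to Srebf2 hold a gene called here, so their separation is no support apart from those calls. The share of other gene pairs that separate was not computed.

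**Figure D3:**
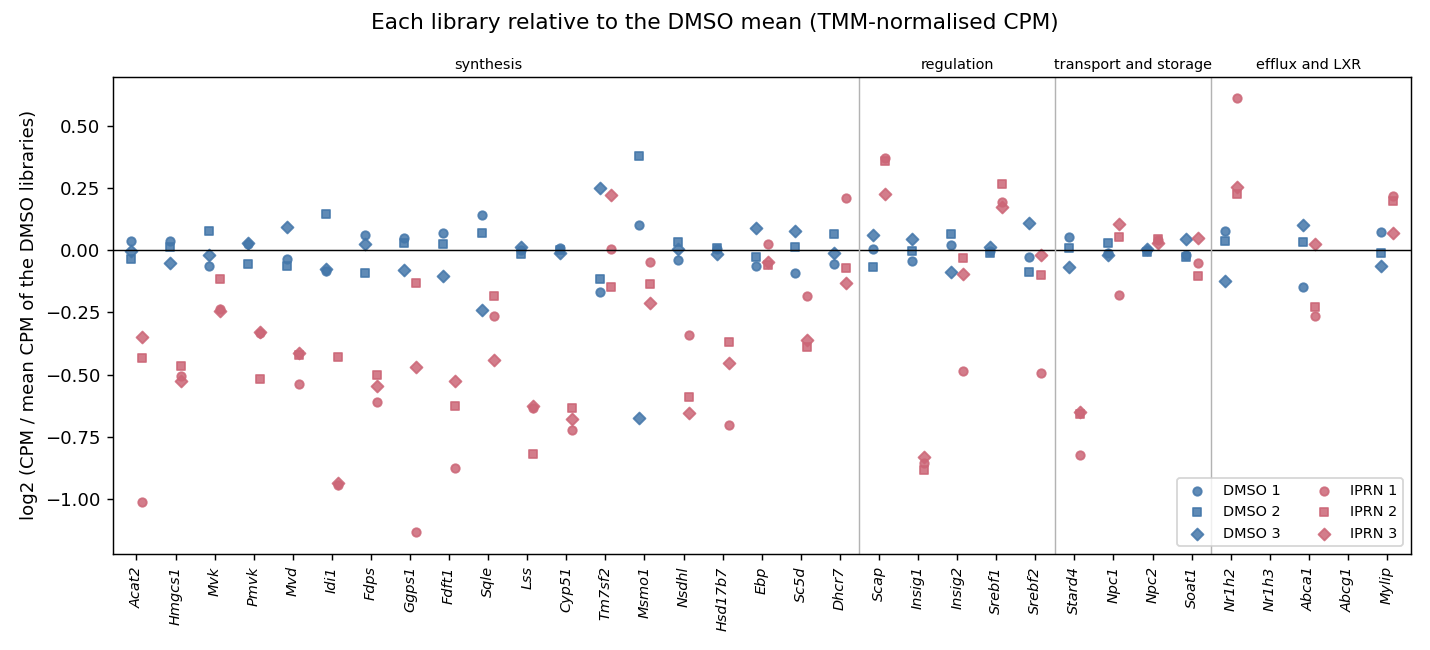
Each library's CPM relative to the mean of the DMSO libraries, on a log2 scale (vertical axis), for the 31 genes above 1 CPM, in pathway order within each role. DMSO libraries (blue) scatter about 0, while the 3 IPRN libraries (red) lie together near -0.86 for Insig1 and apart for Acat2, Ggps1 and Idi1.

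Among the regulators, Insig1 fell, Scap rose and the genes of the SREBP factors did not pass. Insig1 (chromosome 5 from 28071363 to 28078662, plus strand) encodes an endoplasmic reticulum protein that retains SCAP, and is itself a target of SREBP2. It held 168, 173 and 179 CPM in DMSO and 95.8, 94.1 and 97.4 CPM in IPRN, the largest fall among the 13 genes called (log2 fold change -0.86 ± 0.0462 SE, adjusted p = 0.000250). Its rank by p was 24 among all genes tested. Insig2, its relative, held 29.2, 30.1 and 27.0 CPM against 20.5, 28.1 and 26.9 CPM. The lowest DMSO value lay below the highest IPRN value (adjusted p = 0.463). The ratio of Insig1 to Insig2 was 5.77, 5.76 and 6.62 in DMSO and 4.66, 3.34 and 3.62 in IPRN, without overlap (exact permutation p = 0.1).

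Scap held 104, 99.4 and 109 CPM in DMSO and 135, 133 and 122 CPM in IPRN, a 1.25-fold rise (log2 fold change 0.32 ± 0.0607 SE, adjusted p = 0.0338). The call was lost in every fit with 1 library left out (0.0502 to 0.135). Srebf2, the gene of SREBP2, measured 271, 260.0 and 299 CPM against 197, 258 and 273 CPM; the groups overlapped and only IPRN 1 stood clearly below (adjusted p = 0.445, interval -0.48 to 0.10). Srebf1, which encodes the SREBP1 factors of lipid synthesis and is a target of LXR, was higher in all 3 IPRN libraries (56.5, 59.4 and 55.8 CPM) than in DMSO (49.3, 49.0 and 49.8 CPM). It missed the threshold in edgeR (adjusted p = 0.0729) and passed it in DESeq2 (0.0130). Srebf1 shares an exon stretch with Rai1, whose log2 fold change was 0.20 against 0.21 for Srebf1. How reads in that stretch were assigned is not known. The ratio of Srebf1 to Srebf2 was 0.182, 0.189 and 0.167 in DMSO and 0.287, 0.231 and 0.205 in IPRN, again without overlap (exact permutation p = 0.1).

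Another list held 14 genes of the SREBP and LXR machinery, such as the proteases that cleave SREBP and the ligases that degrade its partners. Of the 14, 1 fell (background 3.01%) and 0 rose (background 2.46%). The fall was that of Pgrmc1, a haem-binding membrane protein, at 266, 258 and 259 CPM against 201, 219 and 212 CPM (1.24-fold lower, adjusted p = 0.0199).

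Of the transport and storage genes, 1 of 4 fell (background 3.01%). Stard4, whose protein carries cholesterol between membranes and which SREBP2 induces, held 108, 105 and 99.6 CPM in DMSO and 59.0, 66.2 and 66.5 CPM in IPRN. It was 1.63-fold lower (log2 fold change -0.71 ± 0.0667 SE, adjusted p = 0.00338). Npc1 and Npc2, which together move cholesterol out of lysosomes, had log2 fold changes of -0.0012 (interval -0.20 to 0.20) and 0.04 (-0.05 to 0.13). Soat1, which esterifies cholesterol for storage, ranged from 175 to 184 CPM in DMSO and from 166 to 184 CPM in IPRN (adjusted p = 0.787). The ratio of Stard4 to Soat1 was 0.618, 0.601 and 0.542 against 0.344, 0.400 and 0.362, and the groups did not overlap (exact permutation p = 0.1).

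Of 14 other uptake, transport and storage genes 1 rose (background 2.46%) and 0 fell (background 3.01%). Lrp1, a large endocytic receptor that takes up lipoproteins among many ligands, held 2017, 2019 and 2108 CPM in DMSO and 2600.1, 2763 and 2627 CPM in IPRN (1.30-fold higher, adjusted p = 0.00785).

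The LXR group gave no call: 0 of 5 fell and 0 rose in edgeR, with 1 at an unadjusted p under 0.05, a level that 3769 of all 17159 tested genes reached. The 1 of the 5 was Nr1h2, which encodes LXRβ and was the more abundant of the receptor genes here. It held 42.7, 41.5 and 37.2 CPM in DMSO and 61.8, 47.3 and 48.3 CPM in IPRN, with IPRN 1 far above the others (adjusted p = 0.120, interval 0.09 to 0.65). DESeq2 called it higher (0.0274). Nr1h3, the LXRα gene, was barely detected, with 0, 11 and 0 counts against 26, 11 and 7 counts, and no difference could be read at this depth.

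The LXR targets above 1 CPM gave no call either. Abca1, the pump that loads cholesterol onto lipid-poor apolipoproteins (chromosome 4 from 53030787 to 53159895, minus strand), held 18.5, 21.01 and 22.03 CPM in DMSO and 17.1, 17.5 and 20.9 CPM in IPRN. The groups overlapped (log2 fold change -0.15, interval -0.42 to 0.12, adjusted p = 0.517). Mylip, a ubiquitin ligase that removes lipoprotein receptors from the surface, held 20.3, 19.2 and 18.5 CPM against 22.5, 22.2 and 20.3 CPM; the highest DMSO value lay just above the lowest IPRN value, and the interval ran from -0.03 to 0.36 (adjusted p = 0.316). Abcg1, a second export pump, had 4, 14 and 36 counts in DMSO and 25, 8 and 0 counts in IPRN, too few to compare.

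Set side by side, 12 of 21 SREBP2 targets fell (background 3.01%) and 0 rose, with a median log2 fold change of -0.50. Of the 21, 19 lay below 0 (49.8% of all tested genes). In 15 all IPRN libraries lay below all DMSO libraries (14.7% of all tested genes). Of the 4 LXR-regulated genes Abca1, Abcg1, Mylip and Srebf1, 0 fell and 0 rose in edgeR (1 at an unadjusted p under 0.05). Over all tested genes 5.47% were called, and 0 calls among 4 genes cannot be told from that share. The median of the 4 was 0.0067, and 0.16 without Abcg1. DESeq2 called 1 of the 4, Srebf1, higher. The ratio of Insig1 to Mylip was 8.28, 9.02 and 9.69 in DMSO and 4.26, 4.24 and 4.80 in IPRN, 2.03-fold lower, and that of Hmgcs1 to Abca1 12.1, 10.5 and 9.57 against 9.005, 9.02 and 7.24. In both ratios every IPRN library lay below every DMSO library (exact permutation p = 0.1 for each). Both hold a gene called lower, Insig1 or Hmgcs1, so their separation adds no support apart from those calls. In summed FPKM, which the most abundant genes dominate, the SREBP2 targets came to 684, 689 and 664 in DMSO and 448, 501 and 494 in IPRN, or 70.8% of the DMSO mean. The LXR-regulated genes summed to 15.11, 15.01 and 14.99 FPKM against 16.5, 17.3 and 16.6 FPKM. The largest parts were Srebf1 (means of 7.86 and 9.13 FPKM) and Mylip (5.37 and 6.02 FPKM), which are not export pumps. The pump Abca1 had means of 1.78 FPKM in DMSO and 1.61 FPKM in IPRN.

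Of 17 other known SREBP targets, many of them genes of fatty acid synthesis, 2 fell (background 3.01%) and 0 rose (background 2.46%). Their median was -0.12, and 7 stood at an unadjusted p under 0.05, against 3769 of all 17159 tested genes. Whether this differs from the 21 SREBP2 targets was not tested. Elovl6, a fatty acid elongase whose gene overlaps another model on an exon, was 1.52-fold lower (117, 123 and 111 CPM against 77.8, 77.9 and 75.7 CPM, adjusted p = 0.00285). Rdh11, a retinol dehydrogenase, was 1.38-fold lower (74.1, 77.5 and 71.8 CPM against 51.3, 57.7 and 53.1 CPM, adjusted p = 0.0159). Of 9 other LXR targets 7 could be tested, of which 1 fell (background 3.01%) and 0 rose (background 2.46%). The fall was that of Ttc39b, a scaffold protein gene tied to LXR turnover, at 1.18-fold (129, 132 and 123 CPM against 112, 109.6 and 106 CPM, adjusted p = 0.0468). Of 5 oxysterol enzymes 2 could be tested and neither passed; Ch25h, the cholesterol 25-hydroxylase gene, did not reach the filter.

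The bases before the start sites of 4 genes are shown because 3 of them fell with the SREBP2 targets and the fourth, Abca1, represents the efflux group. Promoter windows from RefSeq (GRCm38.p6) run from 250 bases before to 50 after a start site and were at hand for 27 of the 33 genes. Printed here are the bases that also lie upstream of the deposited gene model, 5′ to 3′ on the gene's strand, with capitals marking the core sterol regulatory element TCACNCCAC and the NF-Y box CCAAT on either strand (ATTGG when reversed). The windows are chr5:28071162-28071362 (plus strand), chr13:119690101-119690350 (plus), chr10:76531355-76531587 (plus) and chr4:53159896-53160145 (minus).
Insig1: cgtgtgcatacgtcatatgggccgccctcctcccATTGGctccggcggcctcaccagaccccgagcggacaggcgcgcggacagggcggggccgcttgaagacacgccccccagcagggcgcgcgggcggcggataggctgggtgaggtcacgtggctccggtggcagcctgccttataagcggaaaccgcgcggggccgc
Hmgcs1: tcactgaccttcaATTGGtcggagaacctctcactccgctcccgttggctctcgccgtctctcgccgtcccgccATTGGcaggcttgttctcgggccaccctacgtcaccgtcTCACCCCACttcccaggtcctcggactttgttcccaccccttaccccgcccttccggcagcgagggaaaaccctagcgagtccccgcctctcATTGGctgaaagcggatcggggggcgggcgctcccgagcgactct
Lss: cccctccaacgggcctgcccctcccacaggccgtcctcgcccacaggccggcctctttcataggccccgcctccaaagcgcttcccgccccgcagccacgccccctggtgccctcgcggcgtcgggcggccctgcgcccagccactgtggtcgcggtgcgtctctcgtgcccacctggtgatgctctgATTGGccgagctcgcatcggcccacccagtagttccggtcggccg
Abca1: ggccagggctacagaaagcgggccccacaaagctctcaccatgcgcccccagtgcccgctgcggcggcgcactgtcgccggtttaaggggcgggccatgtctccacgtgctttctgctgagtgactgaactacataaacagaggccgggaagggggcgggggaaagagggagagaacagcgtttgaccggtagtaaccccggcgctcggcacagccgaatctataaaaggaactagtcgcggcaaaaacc
TCACNCCAC occurred in 1 of 17 matched SREBP2 targets, Hmgcs1, starting 137 bases before its start site (position -137), and in 1.46% of 11059 tested genes with a window. CCAAT was in 16 of the 17 SREBP2 targets, in all 9 matched genes that fell, in 2 of 3 matched LXR-regulated genes and in 43.3% of tested genes. GGGCGG, the core Sp1 box, was in 16 of the 17, 3 of the 3 and 66.2%. The LXR element DR4 was searched only as the perfect direct repeat of AGGTCA with NNNN between the copies. That form was in 0 of the 27 members' windows, in 0 of 11059 tested genes and in 4 of 27025 genes in all. It is too rare for its absence to say anything about the members. Copies with mismatches were not searched, in Abca1 or elsewhere. Both strands were searched; a match is a run of letters and not a shown binding site.

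Reads were not assigned by strand in any protocol given, so genes that share an exon stretch with another gene model are uncertain. This holds for 12 of the 33: Hmgcs1, Idi1, Fdps, Ggps1, Fdft1, Lss, Cyp51, Tm7sf2, Scap, Srebf1, Npc1 and Nr1h3. The partner of Fdft1, the protease gene Ctsb, was the 1 partner with more counts than the member among the genes that fell (576 CPM in DMSO and 529 CPM in IPRN, adjusted p = 0.220), and that of Cyp51, Akap9, measured 52.0 and 53.1 CPM. The partners of Hmgcs1, Lss, Idi1 and Fdps lay under 1 CPM. Among the 21 members without such overlap, 6 fell (background 3.01% of all tested genes) and 0 rose (background 2.46%). The 6 were Pmvk, Mvd, Nsdhl, Hsd17b7, Insig1 and Stard4.

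DMSO 1 and IPRN 3, the libraries in which 15 of 22 liver genes had no count, were set apart as a description. The median log2 ratio of the 21 SREBP2 targets was -0.46 between IPRN 3 and DMSO 1, 1 library each, and -0.48 between the means of IPRN 1 and 2 and of DMSO 2 and 3. Single genes differed between these ratios: Sqle measured -0.58 and -0.15, Acat2 -0.38 and -0.68, and Srebf2 0.0076 and -0.30. The part of liver transcripts in these values was not tested.

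Calls depended on which libraries were kept. Without 1 of the DMSO libraries 6 members were called lower, while without IPRN 1 the number was 12, as with all 6 libraries. Calls over all genes changed too. Without DMSO 1, 2 and 3, 104, 106 and 132 genes were lower, without IPRN 1 593, and with all 6 libraries 516. Between 17159 and 18006 genes were tested in these fits. The 12 members were not the same in the last 2 fits: without IPRN 1 Acat2 (adjusted p = 0.0109) and Sc5d (0.0285) came in. Pmvk (0.0530) and Idi1 (0.0756) dropped out. Of the 13 genes called with all 6 libraries, 6 (Hmgcs1, Fdps, Lss, Cyp51, Insig1 and Stard4) were called whichever library was left out, 5 were called in 1 or 2 of these 6 fits and 2, Pmvk and Scap, in none. Without DMSO 1 and IPRN 3 together, 2 libraries a group, Insig1 was the 1 member still called (adjusted p = 0.0234). In that fit 42 of 17638 tested genes were called lower.

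**Figure D4:**
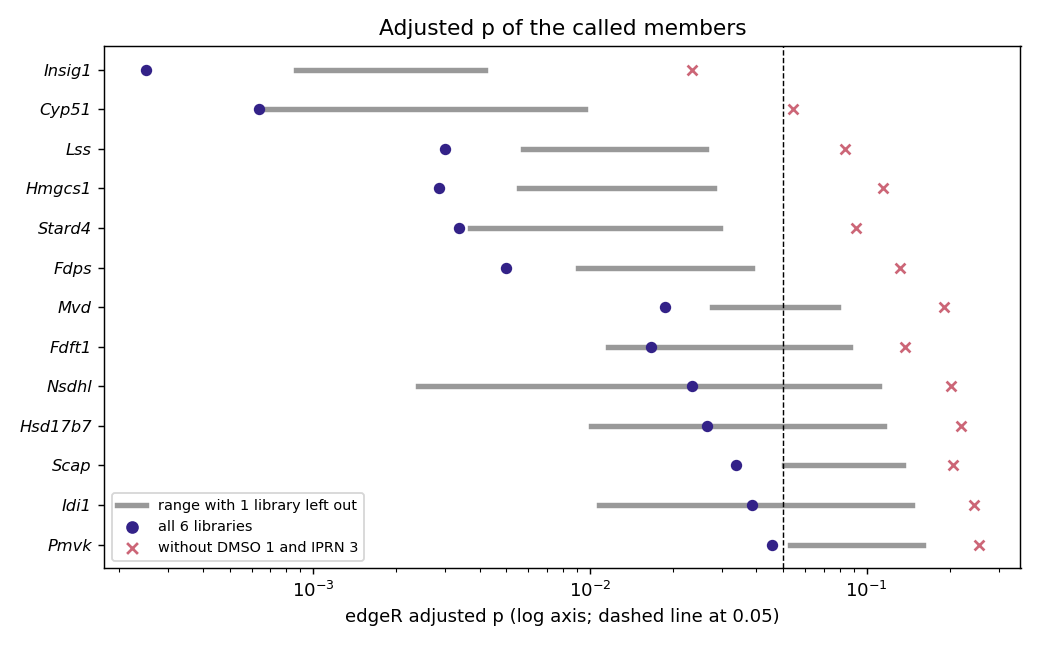
Adjusted p of the 13 called genes in edgeR on a log axis: all 6 libraries (dots), the range over the 6 fits with 1 library left out (bars) and the fit without DMSO 1 and IPRN 3 (crosses), with the threshold of 0.05 dashed. The bars of 6 genes stay below the threshold, and the cross of Insig1 (0.0234) is the 1 cross below it.

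**Figure D5:**
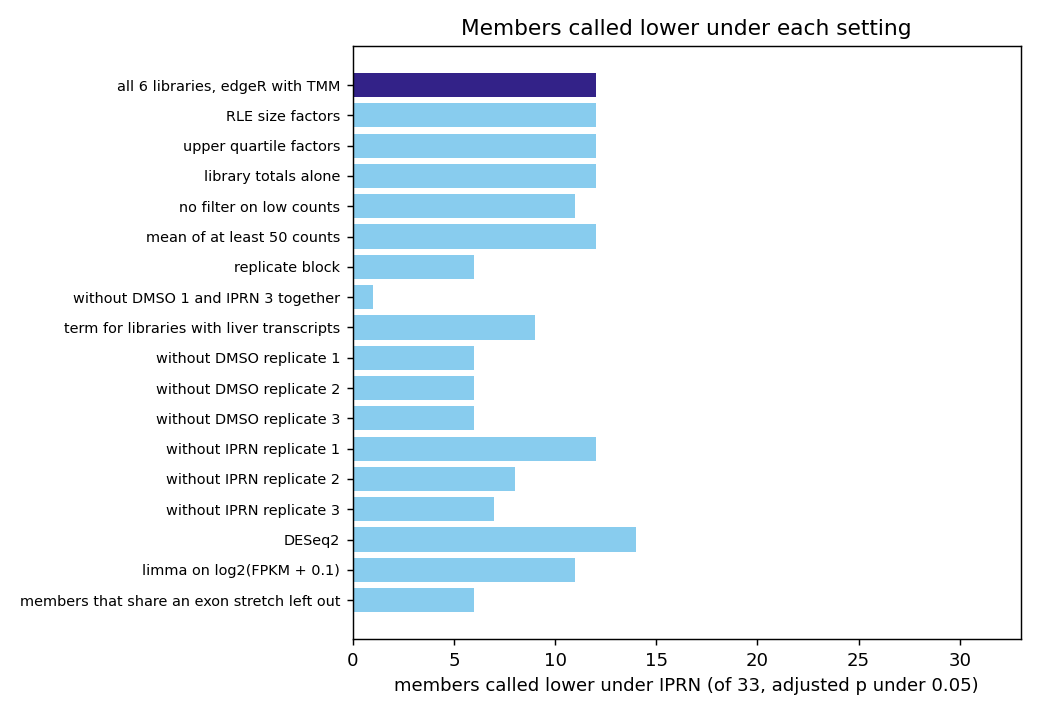
Number of the 33 genes called lower under each setting (bars from 0; the dark bar is the fit used in the text). The count is 12 with all 6 libraries, 14 with DESeq2, 6 without any 1 DMSO library and 1 without DMSO 1 and IPRN 3. Over all tested genes 516, 1114, 104 to 132 and 42 were called lower in these settings.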

How the data were processed

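Per the labels' protocols, libraries were made from mRNA enriched with oligo(dT), by random priming and PCR; no step marks the strand. Cutadapt 1.9 is named in the submitters' processing notes; for the aligner, counting tool, genome build and annotation, no name was given in the sources used here. The authors deposited raw counts and FPKM values per Ensembl gene, per the file headers. Of 55141 gene IDs shared with GENCODE M21, 94.2% had its exact GRCm38 position (30 of the 33 members), so positions are on that build. FPKM served to compare levels between genes and in 1 alternative test.

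The test on counts was that of edgeR 4.0.16 under R 4.3.3 (TMM, default filter on the groups with a minimum count of 10, quasi-likelihood test, group as the only term, two-sided). P-values were adjusted by the Benjamini-Hochberg method over 17159 genes, and a gene was called at an adjusted p under 0.05. Intervals (95%) come from the fold change, its standard error and the model's degrees of freedom. Adjusted p-values are edgeR's unless DESeq2 1.42.0 or limma 3.58.1 is named. Counting error alone gives a floor of 3 counts, or 0.0382 to 0.0497 CPM. Code was tested on simulated counts, with changed genes drawn from all tested genes. The test called 13.4% of those changed 1.5-fold and 44.8% of those changed 2-fold. A gene that was not called may therefore still have changed. Alternatives changed the scaling, the filter, the tool, the libraries kept, a replicate block and a term for liver transcripts.

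The members and lists were chosen with earlier results of these data known. All 33 members are named; called members, regulators and LXR genes are given by library, and from each other pathway list at most 3 called genes.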

Additional observations from a re-analysis of the deposited data

How the results depend on the processing

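Scaling with RLE factors, upper quartile factors or library totals left 12 members lower and 1 higher, with 941, 952 and 939 genes called in all. Without a filter 621 genes were called in all, against 938, with 11 members lower; the cause was not tested. With a mean of at least 50 counts required, 2 members were higher (Scap and Srebf1) and 1 of the LXR-regulated genes was called. DESeq2 called 2283 genes, 14 members lower (Acat2 and Sc5d added) and 3 higher (Scap, Srebf1 and Nr1h2), with 1 LXR-regulated gene called; the cause was not tested. Limma on log2(FPKM + 0.1) called 716 genes, with 11 members lower and 1 higher. A covariate for the libraries with 15 liver genes at 0 gave 429 genes, 9 members lower and 0 higher. Without DMSO 1 and IPRN 3 together, which leaves 2 libraries a group, 53 genes, 1 member lower, 1 SREBP2 target lower and 0 higher remained called. Among members without exon overlap 6 were lower (background 3.01%), 6 SREBP2 targets among them, and 0 higher (background 2.46%).

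With 1 library left out, 133 (without DMSO 1) to 1047 (without IPRN 1) genes were called, 6 to 12 members and 6 to 12 SREBP2 targets lower, and 0 members higher. In those fits log2 fold changes of members that were never called crossed 0: Tm7sf2 from -0.072 to 0.18, Msmo1 from -0.38 to 0.11, Ebp from -0.058 to 0.019, Dhcr7 from -0.10 to 0.072, Npc1 from -0.061 to 0.081, Soat1 from -0.081 to 0.0028 and Abcg1 from -2.10 to 0.23. Npc1 was 0.0042 with library totals alone, 0.0015 without a filter and 0.00037 with at least 50 counts, and Tm7sf2 was -0.15 without DMSO 1 and IPRN 3 together. The liver marker difference, IPRN minus DMSO, was 3.12 CPM with all libraries and ran from -26.5 CPM (without IPRN 1) to 23.6 CPM (without IPRN 3). The median log2 fold change of the SREBP2 targets stayed between -0.51 and -0.42 in all these fits.

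With replicate number as a block 103 genes, 6 members and 6 SREBP2 targets lower and 0 members higher were called. Deviations of same-numbered libraries from their group means had correlations of -0.175, 0.0864 and -0.13. The largest correlation of any pair was 0.237, between DMSO 1 and IPRN 3, the libraries in which 15 liver genes had no count. Deviations within 3 libraries are tied to each other, so these values cannot settle whether the numbers pair the libraries. Genes under about 1 CPM, Nr1h3 and Abcg1, could not be compared at this depth.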
